A study of Rattus norvegicus with 20 samples.

Results

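The secretory and vesicle traffic genes described here were 58 genes of the rat choroid plexus, out of 32883 genes measured in each library. They were chosen by their symbols: those that start with Rab, Arf or Sec followed by a digit, or with Tmed, Vps, Snx, Vamp or Stx followed by a digit, together with the named COPI coat subunits and Sar1 GTPases. The deposited tables hold Ensembl identifiers only, and symbols were taken from the gene tables of the study, whose copies used here name 2616 of the identifiers, most of them abundant genes. The 58 genes are therefore the abundant part of the traffic machinery, and other members of these families were not analysed here. Of the 58, 55 were named by their abundance, and Stx6, Sec14l2 and Sec14l4 only because the study lists them as differentially expressed between the lean and the obese rats. For these 3 genes, comparisons that use the lean or the obese rats are described below with no p of their own. They are included in the counts over the 58 genes, and the counts over the other 55 are given beside them.

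The choroid plexus was taken from 20 female Zucker rats aged 16 weeks and kept on normal chow, and its RNA was sequenced, 1 library per rat. The lean rats (n = 6) were heterozygous (+/fa) and the obese rats (n = 6) were fa/fa, that is, deficient in the leptin receptor in every tissue, and neither group was injected. The lean control rats (n = 4) were +/fa and received sesame oil under the skin as vehicle, and the obese + TT rats (n = 4) were fa/fa and received testosterone propionate in the same oil. The study asked whether obesity, and obesity with adjuvant testosterone, alter the tissue that secretes the cerebrospinal fluid. No obese rats with vehicle and no lean rats with testosterone were among the 20, so obesity and testosterone cannot be told apart in the injected rats.

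Proteins bound for secretion or for membranes enter the endoplasmic reticulum (ER) through the Sec61 channel, leave it in vesicles with a COPII coat, and are carried back from the Golgi apparatus by COPI vesicles, whose coat is recruited by Arf GTPases. Rab GTPases give each compartment its identity, SNARE proteins fuse the membranes, and retromer, sorting nexins and the ESCRT complexes sort cargo in endosomes. The choroid plexus epithelium secretes transthyretin (encoded by Ttr) into the cerebrospinal fluid in large amounts, and membrane traffic sets which transporters stand at its surface.

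Values are given in TPM, which express each gene as a share of all transcripts of its library after correction for transcript length, so that levels can be compared between genes. Differences are given as log2(TPM + 0.1), tested with limma and adjusted over all genes tested. The TPM files do not give the depth of the libraries. In bulk tissue, fewer cells of a type and less RNA per cell cannot be told apart. Of 10 epithelial markers, 9 could be named. Their sum, Ttr included, had medians of 342020 TPM in the lean and 349940 TPM in the obese rats. It was 300160 TPM in the lean control and 281170 TPM in the obese + TT rats. Ttr alone had medians of 334520, 342180, 289280 and 269380 TPM in the same order. Each of the other named epithelial markers had a higher median in both injected groups than in both untreated groups. Kl had medians of 416, 426, 892 and 942 TPM, and Aqp1 667, 616, 732 and 748 TPM, in that order. The neuronal, astrocyte and oligodendrocyte markers looked for had no symbol in the tables (0 of 11 named) and were not assessed. Within the groups, no 2 libraries were copies of each other, with at most 0.463% identical values among the genes at 1 TPM or more.

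The traffic genes spanned a wide range of levels, from Sec61g at 432 ± 66.0 TPM (SD, n = 20) to Sec14l2 at 9.46 ± 1.39 TPM, with a median of 78.5 TPM over the 58 genes. Since all but 3 were named from the abundant end of the tables, this level is partly set by the choice of genes. Together they took between 5474 and 6461 TPM in the lean rats, 5559 and 6383 TPM in the obese rats, 5857 and 6084 TPM in the lean control rats and 5783 and 6287 TPM in the obese + TT rats. The group ranges of these sums overlapped. The lowest sums of the untreated rats belonged to lean rat 6 and obese rat 10, in which Ttr took 39.0% and 39.3% of all TPM. With Ttr left out, the 58 genes took 0.8975 to 0.9533% of TPM in the lean and 0.9077 to 0.9536% in the obese rats. They took 0.832 to 0.8493% in the lean control and 0.7921 to 0.847% in the obese + TT rats, below every untreated rat.

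**Figure D1:**
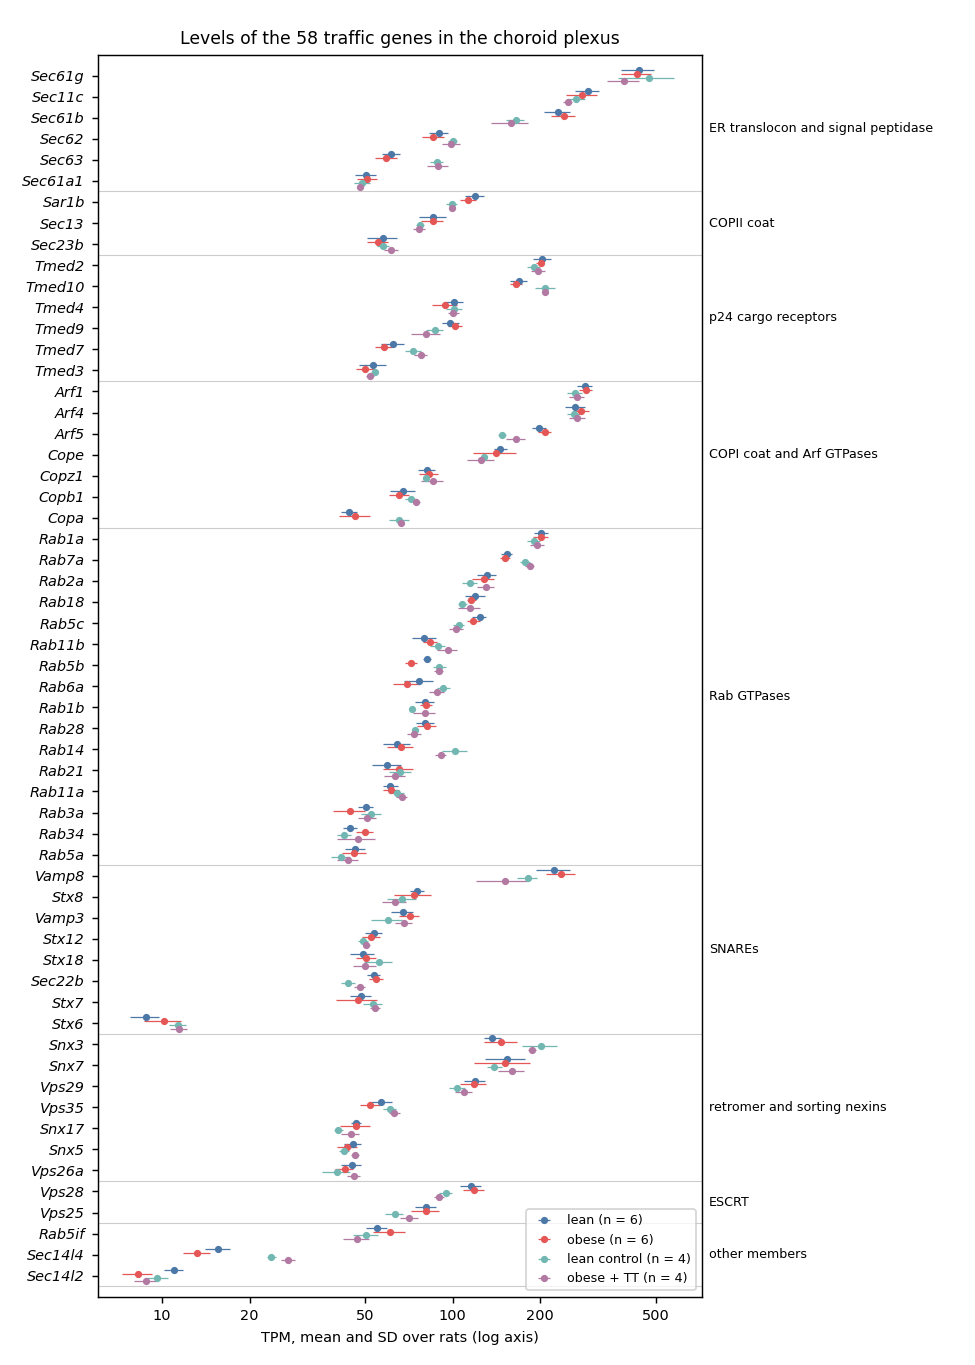
Mean TPM (log axis) of each of the 58 traffic genes in the 4 groups, with bars of 1 SD over rats, ordered by role and by level within a role. Sec61g lies highest in every group, and Stx6, Sec14l2 and Sec14l4 lie lowest; Sec63, Copa, Rab14 and Sec14l4 lie higher in both injected groups than in both untreated groups.

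At the ER entry, Sec61g, which encodes a small subunit of the Sec61 channel, was followed by Sec11c (a catalytic subunit of signal peptidase) at 274 ± 28.8 TPM and Sec61b (another small subunit of the channel) at 206 ± 42.0 TPM, whereas Sec61a1, which encodes the pore itself, stood at 49.8 ± 3.53 TPM (SD, n = 20 for each). Among the coats, the highest levels were those of the GTPases Arf1 at 278 ± 18.3 TPM and Arf4 at 268 ± 17.4 TPM, which recruit the COPI coat at the Golgi apparatus. The COPII genes were led by the GTPase Sar1b at 109 ± 10.6 TPM and by the coat subunit Sec13 at 82.1 ± 7.67 TPM. Of the p24 family, which sorts cargo between the ER and the Golgi apparatus, Tmed2 reached 199 ± 11.0 TPM and Tmed10 183 ± 22.7 TPM.

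Among the 16 Rab GTPases, Rab1a, which acts between the ER and the Golgi apparatus, stood highest at 198 ± 11.3 TPM, followed by Rab7a of late endosomes at 164 ± 15.5 TPM. Vamp8, a SNARE of late endosomes and of regulated secretion, stood at 204 ± 41.8 TPM, well above the next SNARE gene, Stx8, at 70.8 ± 8.61 TPM. The endosomal sorting genes were led by the sorting nexins Snx3 at 163 ± 31.0 TPM and Snx7 at 151 ± 23.2 TPM, and the ESCRT genes Vps28 and Vps25 stood at 107 ± 14.6 and 75.4 ± 9.78 TPM. Rab5if, whose symbol met the rule although it encodes no Rab GTPase, stood at 54.2 ± 7.56 TPM.

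The order of the 58 genes was much alike in the 4 groups, with correlations of their ranks between 2 groups of 0.949 or more, over genes whose level differs widely by choice. Neighbours in that order were mostly not separable: of 57 neighbouring pairs, 3 kept their order in all 20 rats, namely Sec61g above Arf1, Tmed10 above Rab7a, and Vps26a above Sec14l4. The median coefficient of variation of the 58 genes lay between 5.79% in the lean control and 8.28% in the obese rats. Snx7 was the most variable gene in the lean rats (15.8%) and in the obese rats (21.7%), Sec61g in the lean control rats (21.9%) and Vamp8 in the obese + TT rats (20.6%).

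Secretory genes are known targets of the unfolded protein response, so the promoters were read for its elements. RefSeq promoter windows (build GRCr8) were found for 52 of the 58 symbols, and the 250 bases before each start were searched on both strands. The XBP1-type element (UPRE, TGACGTGG) lay in 2 of the 52, Arf1 and Arf4, and in 0.52% of the 33469 promoters of the table. The ER stress elements ERSE (CCAAT and CCACG with 9 bases of any kind between them) and ERSE-II (ATTGG and CCACG with 1 base between them) lay in 0 of the 52 and in 0.07% and 0.04% of all promoters. The stretches that hold the element in the genes of both Golgi GTPases are shown because these are the only matches, with the element in capitals, for Arf1 at chr10:44513995-44514054 on the minus strand and for Arf4 at chr16:1903397-1903435 on the plus strand:
Arf1: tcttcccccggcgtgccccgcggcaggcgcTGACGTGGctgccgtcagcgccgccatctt
Arf4: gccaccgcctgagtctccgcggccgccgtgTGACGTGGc
In both genes the letters lie within the last 30 bases before the annotated start. In TPM neither gene passed a test in any of the comparisons that follow. With median-of-ratios scaling both were called lower in the injected than in the untreated rats (Arf1 -0.41 and Arf4 -0.31 in the lean rats), as were most of the 58 genes. A match of letters is no evidence of binding.

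The obese and the lean rats differed in obesity and in the leptin receptor, which cannot be told apart here. None of the 58 passed the test between the obese and the lean rats (adjusted p under 0.05: 0 of 58, and 0.0% of the 15176 genes tested, also 0 genes). The study, with DESeq2 on gene counts, lists genes as differentially expressed between these groups (315 in the copy used here). The absence of calls therefore holds for limma on TPM, and does not show that no gene differs. The median difference over the 58 genes was -0.02 on the log2 scale. In the obese rats 23 of the genes had a higher and 35 a lower mean, against 8446 higher and 6730 lower of all genes tested. Among the 2766 genes with a mean of 30 TPM or more, 1455 were higher and 1311 lower. For 57 of the 58 the 95% interval lay within 0.5 log2 units of no difference. The same held for 2614 of those 2766 genes. The median size of the difference over the 58 genes was 0.06, compared with 0.11 over all genes tested and 0.06 over the genes with a mean of 30 TPM or more. At an unadjusted p under 0.05, 5 of the 58 genes (8.62%) were found, against 9.66% of all genes: 1 higher (1.72%, against 5.91%) and 4 lower (6.90%, against 3.75%). Of these 5, Sec14l2 and Sec14l4 were chosen from this very comparison. Over the 55 genes named by abundance, 3 were found (5.45%, against 9.15% of the genes with a mean of 30 TPM or more), 1 higher and 2 lower.

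Rab5b, which encodes a GTPase of early endosomes, was the most separated of the genes named by abundance, although the study also lists it as differentially expressed on these rats. Its level (ENSRNOG00000006130) was lowest at 77.5, median 81.0 and highest at 85.0 TPM in the lean rats and lowest at 67.0, median 71.5 and highest at 77.7 TPM in the obese rats. The groups overlapped only in that the highest obese rat, rat 11, exceeded the lowest lean rat, rat 4. The mean was 11.8% lower in the obese rats (log2 difference -0.18 ± 0.05 SE, limma adjusted p = 0.284, exact two-sided permutation p = 0.00433, n = 6 and 6). Since Rab5b was picked for its separation in these same rats, that permutation p adds nothing. The other Rab5 genes lay closer to their lean level, with Rab5a at -0.01 and Rab5c at -0.07. The ratio of Rab5c to Rab5b within a rat, which no scaling of the library can change, was 1.52 ± 0.09 in the lean and 1.64 ± 0.13 in the obese rats (SD, n = 6 each), with overlapping ranges.

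Rab34, a Golgi-associated GTPase also needed for primary cilia, had a lowest, median and highest level of 41.6, 43.7 and 48.2 TPM in the lean and 44.9, 49.975 and 54.9 TPM in the obese rats. Its mean was 12.5% higher in the obese rats, with overlapping groups (log2 difference 0.17 ± 0.06 SE, limma adjusted p = 0.388). Rab3a, known for its role on secretory vesicles in regulated exocytosis, had 46.5, 49.6 and 54.0 TPM in the lean and 35.4, 44.2 and 52.9 TPM in the obese rats, again overlapping (log2 difference -0.19 ± 0.08 SE, limma adjusted p = 0.490).

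The 3 genes that entered through this comparison are given as a description. Sec14l2, which encodes a lipid-binding protein related to yeast Sec14, had 9.89 to 12.3 TPM in the lean and 7.29 to 9.29 TPM in the obese rats, so that every obese rat lay below every lean rat. It was the 1 gene of the 58 whose groups did not overlap, in a comparison in which 0.244% of all genes were lower without overlap. Sec14l4, its relative, had 13.7 to 17.3 TPM in the lean and 11.4 to 15.4 TPM in the obese rats, and Stx6, a SNARE of the trans-Golgi network and endosomes, 7.83 to 10.3 TPM in the lean and 8.75 to 12.6 TPM in the obese rats. The ranges of both genes overlapped.

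**Figure D2:**
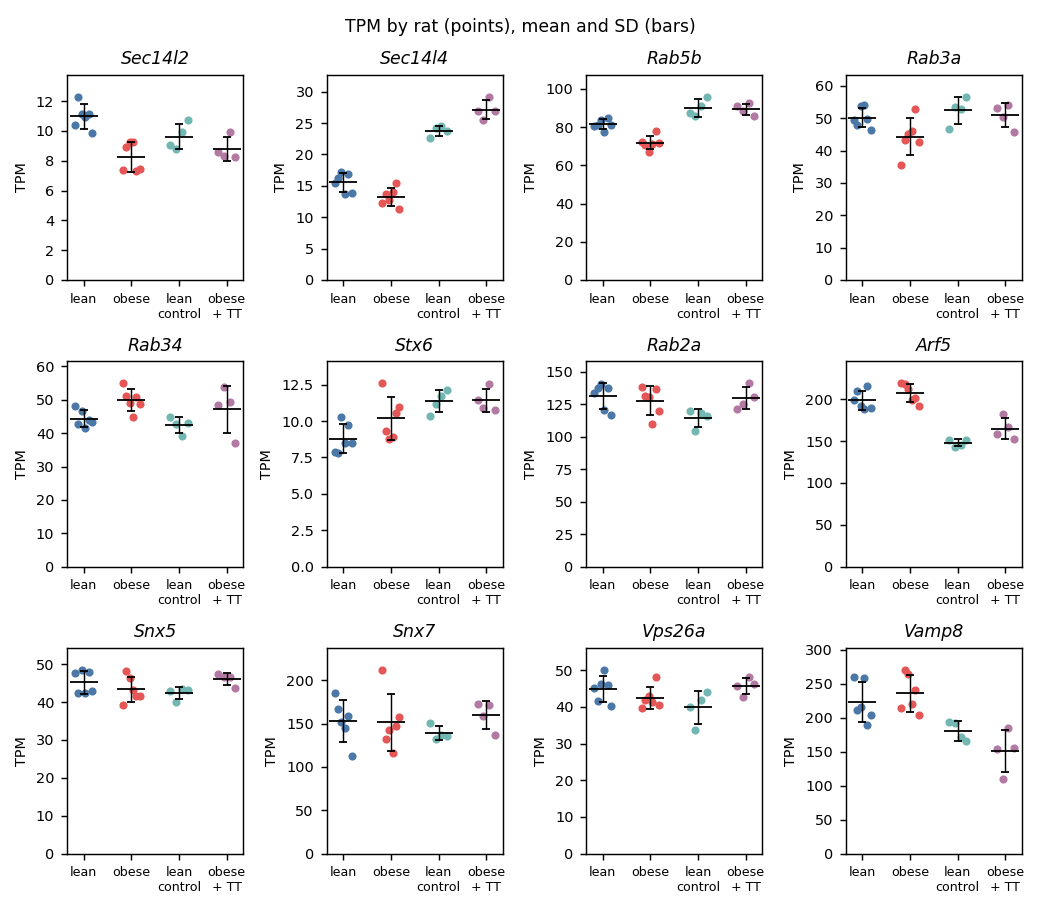
TPM of 12 traffic genes in each rat (points), with the mean and 1 SD (bars) of the lean (n = 6), obese (n = 6), lean control (n = 4) and obese + TT (n = 4) groups. The means of Sec14l2 and Rab5b lie lower in the obese than in the lean rats, Sec14l4 lies higher in all 8 injected rats than in all 12 untreated rats, and Rab2a, Arf5 and Snx5 lie higher in each obese + TT rat than in each lean control rat.

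No traffic gene passed the test in the injected rats either. Between the obese + TT and the lean control rats, 0 of the 58 genes had an adjusted p under 0.05, as had 0.0% of the 15259 genes tested (0 genes). The study lists differentially expressed genes here too, from DESeq2 on gene counts (201 in the copy used here). The absence of calls again holds for limma on TPM. At an unadjusted p under 0.05, 8 of the 58 genes (13.8%) were found, against 7.43% of all genes and 11.4% of the genes with a mean of 30 TPM or more, and all 8 were higher in the obese + TT rats, where 4.25% of all genes were. Over the 55 genes named by abundance, 7 were found (12.7%). The median difference over the 58 genes was 0.02, with 34 genes higher and 24 lower, against 8025 and 7234 of all genes tested. For 56 of the 58 the 95% interval lay within 0.5 log2 units of no difference. The same held for 2966 of the 3197 genes with a mean of 30 TPM or more. The count of 8 was unstable, and fell to 1 without lean control rat 14, to 2 without obese + TT rat 19, and to 1 when the variance was not modelled on the mean level. Lean control rat 14 had the fewest genes above 0 TPM of all 20 rats (14968), and the part of this in the count was not tested.

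Of the 8 genes, 4 had groups that did not overlap, all higher in the obese + TT rats (6.90% of the 58 genes, against 4.02% of all genes in either direction and 2.37% in this one). Rab2a, which acts in traffic between the ER and the Golgi apparatus, had 119.63, 104.41, 118.14 and 116.16 TPM in the lean control rats and 121.49, 125.3, 140.99 and 130.88 TPM in the obese + TT rats. Arf5, a Golgi GTPase, had 151.6, 143.47, 144.97 and 151.57 TPM in the lean control rats and 158.11, 181.98, 166.93 and 152.35 TPM in the obese + TT rats. For Arf5 the lowest obese + TT rat, rat 20, stood less than 1 TPM above the highest lean control rat.

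The endosomal sorting nexin Snx5 had 42.87, 39.98, 43.32 and 43.09 TPM in the lean control rats and 47.3, 46.49, 46.74 and 43.8 TPM in the obese + TT rats. Sec14l4 (ENSRNOG00000004555) had 22.56, 24.19, 24.47 and 23.73 TPM in the lean control rats and 26.9, 25.49, 29.23 and 26.88 TPM in the obese + TT rats. Groups of 4 against 4 rats without overlap always give the smallest possible exact two-sided permutation p, 0.0286. For these 4 genes, picked because their groups did not overlap, that p adds nothing. The log2 difference was 0.18 ± 0.07 SE for Rab2a (limma adjusted p = 0.605), 0.15 ± 0.06 for Arf5 (0.646), 0.12 ± 0.05 for Snx5 (0.668) and 0.19 ± 0.06 for Sec14l4 (0.593).

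The other 4 of the 8 overlapped between the groups. These were Vps26a, a retromer subunit (log2 difference 0.20), the sorting nexin gene Snx7 (0.20), Vps25 of ESCRT-II (0.16) and Sec22b, a SNARE between the ER and the Golgi apparatus (0.13). Of the 3197 genes with a mean of 30 TPM or more, 1817 had a higher and 1380 a lower mean in the obese + TT rats. Of the 7 genes for retromer and sorting nexins, 6 had a higher mean, with a median difference of 0.12, and 3 were among the 8. The COPI coat and Arf genes had 6 of 7 higher as well, with a median difference of 0.04. No role list was tested as a set. Of the 6 translocon and signal peptidase genes, 5 had a lower mean, with a median difference of -0.04 and none among the 8. Among 11 ratios between subunits or paralogues within a rat, 1 did not overlap between these groups. Vps35 stood at 1.53 ± 0.10 times Vps26a in the lean control and at 1.38 ± 0.02 times in the obese + TT rats (SD, n = 4 each). Ratios between other genes were not computed, so this count has no background.

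**Figure D3:**
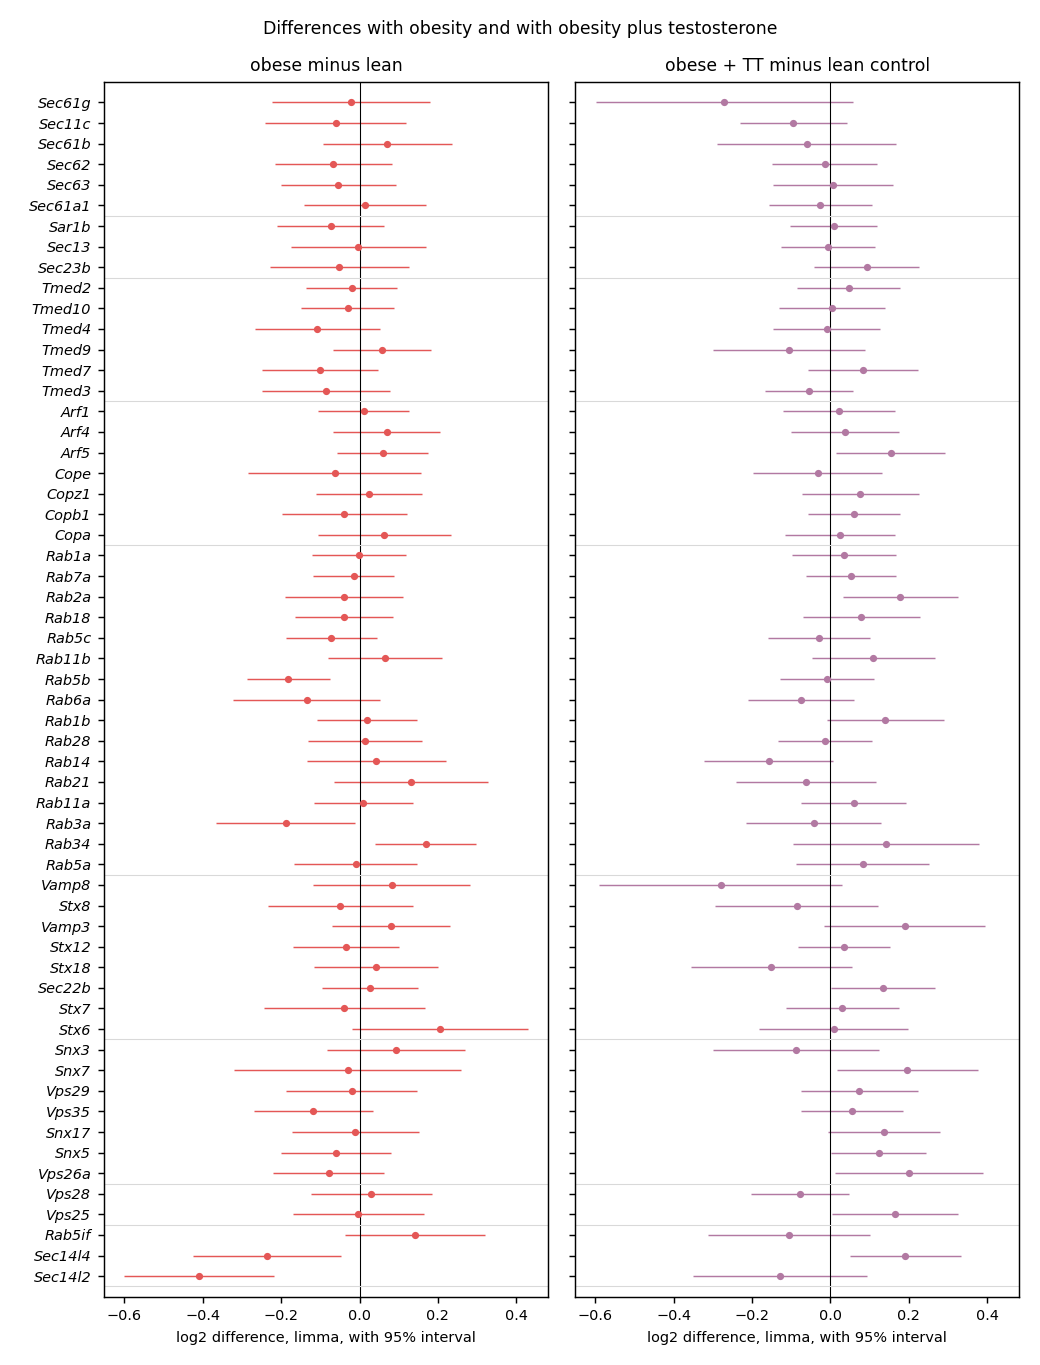
Log2 difference of each traffic gene between obese and lean rats (left) and between obese + TT and lean control rats (right), with bars for the 95% interval from limma. On the left 57 of 58 intervals, and on the right 56 of 58, lie within 0.5 log2 units of 0, and the vertical line marks no difference. Among genes with a mean of 30 TPM or more, not drawn here, 2614 of 2766 and 2966 of 3197 intervals did so.

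Whether the contrast of obese with lean differed between the injected and the untreated rats was tested in 1 fit of all 20 libraries. None of the 58 genes passed (0 of 58 at an adjusted p under 0.05, and 0.0% of 15406 genes), and 7 were found at an unadjusted p under 0.05 (12.1%, against 8.36% of all genes), of which 6 were higher in the injected contrast (10.3%, against 3.79%) and 1 lower (1.72%, against 4.57%). These include Sec14l2 and Sec14l4, whose difference contains the values that chose them. Over the 55 genes named by abundance, 5 were found (9.09%, against 9.39% of the genes with a mean of 30 TPM or more), 4 higher and 1 lower. Vps26a differed by 0.28 ± 0.11 SE on the log2 scale, Rab2a by 0.22 ± 0.10, Snx5 by 0.18 ± 0.09 and Rab5b by 0.17 ± 0.07, while Vamp8 differed by -0.36 ± 0.17 (limma adjusted p from 0.492 to 0.597 for these 5). As a description, Sec14l4 was lower in the obese than in the lean rats and higher in the obese + TT than in the lean control rats, with a difference between the contrasts of 0.43, and for Sec14l2 it was 0.28. The number of genes at an unadjusted p under 0.05 fell to 1 without lean control rat 14. Over the 58 genes, the sign was the same in both contrasts for 25, a count that was not made over all genes.

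Much larger differences separated the injected from the untreated rats of the same genotype. Between the lean control and the lean rats, 24 of the 58 traffic genes passed the test (41.4%), and between the obese + TT and the obese rats 23 passed (39.7%). Most genes of the tissue did so as well, 58.2% of 15326 and 58.1% of 15389, and among the genes with a mean of 30 TPM or more 61.7% and 63.4%. The first pair differed by vehicle injection, and the second by injection with testosterone. The injected rats formed an experiment of their own with their own control, so injection and experiment cannot be told apart. Over the 55 genes named by abundance, 22 passed in each pair, 9 higher and 13 lower in the lean and 13 higher and 9 lower in the obese pair.

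In the lean pair, 11 of the 58 genes were called higher in the injected rats (19.0%, against 41.7% of all genes) and 13 lower (22.4%, against 16.5%), and 18 had groups that did not overlap (31.0%, against 44.8%), 10 of them higher (17.2%, against 34.0%) and 8 lower (13.8%, against 10.7%). In the obese pair, 14 were called higher (24.1%, against 41.7%) and 9 lower (15.5%, against 16.4%), and 21 did not overlap (36.2%, against 45.8%), 12 higher (20.7%, against 34.1%) and 9 lower (15.5%, against 11.7%). The directions rested on the scaling. The median of all genes lay 0.24 above 0 in the lean pair and 0.25 in the obese pair in TPM, whereas the median of the traffic genes lay at -0.09 and -0.02. With median-of-ratios scaling, 47 traffic genes were called in the lean pair, 5 higher and 42 lower (8.62% and 72.4%), against 27.9% and 31.2% of all genes and 20.9% and 55.3% of the abundant genes (mean of 30 TPM upwards). Calls numbered 41 in the obese pair, 4 higher and 37 lower (6.90% and 63.8%), against 27.6% and 29.9% of all genes and 22.4% and 51.1% of the abundant ones. With Ttr left out of the TPM, 42 were called in the lean pair, 8 higher and 34 lower (13.8% and 58.6%), against 36.1% and 21.6% of all genes and 31.9% and 38.5% of the abundant ones. In the obese pair 38 were called, 10 higher and 28 lower (17.2% and 48.3%), against 32.7% and 23.1% of all genes and 29.4% and 40.2% of the abundant ones.

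Several measures of the libraries moved with injection. Ttr took 31.2 to 39.3% of TPM in the untreated and 25.8 to 30.5% in the injected rats, and the mean transcript length implied by the FPKM values was 820 to 902 bases in the untreated and 1005 to 1086 bases in the injected rats. The endothelial marker Plvap (1 of 5 named) had medians of 46.9 TPM in the lean and the obese rats, 4.38 TPM in the lean control and 4.21 TPM in the obese + TT rats. The mural cell markers Rgs5 and Tagln (2 of 4 named) summed to medians of 150 and 169 TPM in the untreated and 8.62 and 6.17 TPM in the injected groups. Fibroblast markers (3 of 6 named) summed to 124 and 122 TPM against 81.9 and 70.3 TPM, but did not move together. Dcn had medians of 94.7 and 89.8 TPM against 11.4 and 9.02 TPM. Col1a1 had 5.03 and 7.225 TPM against 0.445 and 0.58 TPM. Pdgfra was higher in the injected groups, with 25.7 and 27.1 TPM against 71.9 and 59.9 TPM. The macrophage marker Cd74 (1 of 7 named) had medians of 161 and 176 TPM against 64.1 and 42.5 TPM. The ependymal marker Rsph1 (1 of 4 named) had group medians between 70.8 and 77.5 TPM. The erythroid markers (3 of 4 named) did not follow injection, with summed medians of 3950 TPM in the lean, 5406 TPM in the obese, 2980 TPM in the lean control and 6381 TPM in the obese + TT rats, and their part in the comparisons of obese with lean rats was not tested either. The part of these in the differences below was not tested.

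The lean and the obese pair share no rat. In TPM, 18 traffic genes were called in both pairs in the same direction, 10 higher and 8 lower, which are 75.0% of the calls of the lean pair and 78.3% of those of the obese pair, and 0 were called in opposite directions. Over all genes these shares were 83.1% and 83.2%. Across the 58 genes the differences of the pairs had a Pearson correlation of 0.86, as over all genes (0.87), and genes within a library are not independent. In TPM, 5455 of all genes were called higher in both pairs and 1916 lower. Under all 3 scalings, 4 traffic genes were called higher in both pairs and 8 lower. The share of all genes called so under all 3 scalings was not computed, so these counts have no background beside them. Among the 4, Sec14l4 was named through its difference between the lean and the obese rats that enter these pairs.

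**Figure D4:**
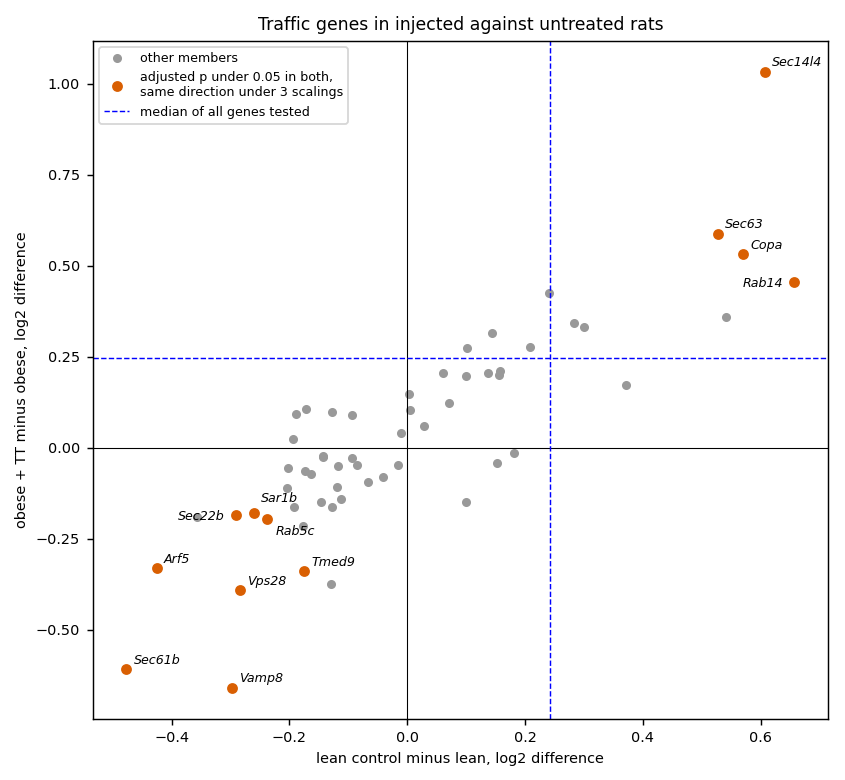
Log2 difference of each traffic gene between lean control and lean rats (horizontal) and between obese + TT and obese rats (vertical), with dashed lines at the median of all genes tested. The 12 genes in orange were called in both pairs in the same direction under the 3 scalings, 4 at the upper right and 8 at the lower left.

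Of the 4 genes called higher in both pairs under every scaling, Sec63, Copa and Rab14 came from different steps of the pathway. Sec14l4 met the rule by its symbol and is no trafficking coat, GTPase or SNARE. Sec63 encodes an ER membrane protein that recruits the chaperone BiP to the channel, and its level (ENSRNOG00000000314) was lowest at 56.9, median 60.5 and highest at 69.1 TPM in the lean rats and 51.3, 58.5 and 65.0 TPM in the obese rats, against 89.76, 81.68, 90.28 and 91.79 TPM in the lean control rats and 84.45, 82.94, 88.95 and 99.25 TPM in the obese + TT rats. Every injected rat lay above every untreated rat. The log2 difference was 0.53 ± 0.06 SE in the lean pair (limma adjusted p = 2.01e-05) and 0.59 ± 0.08 in the obese pair (5.47e-05).

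Copa (ENSRNOG00000006247), the largest subunit of the COPI coat, had 40.8, 43.5 and 48.2 TPM in the lean and 39.4, 45.2 and 53.8 TPM in the obese rats (lowest, median, highest). It had 66.63, 60.83, 62.38 and 72.49 TPM in the lean control and 67.83, 65.31, 67.08 and 66.07 TPM in the obese + TT rats, again with every injected rat above every untreated rat. The log2 difference was 0.57 ± 0.07 SE in the lean pair (limma adjusted p = 2.03e-05) and 0.53 ± 0.09 in the obese pair (0.000208). Of the other COPI genes, Copb1 was called higher in the obese pair (0.20) and Cope lower in the lean pair (-0.19), in TPM.

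Rab14 (ENSRNOG00000018901), which acts between the Golgi apparatus and endosomes, had 58.3, 61.5 and 77.3 TPM in the lean and 57.7, 66.2 and 76.4 TPM in the obese rats. It had 92.03, 103.52, 96.12 and 114.82 TPM in the lean control and 86.62, 92.28, 95.97 and 88.49 TPM in the obese + TT rats. Of the Rab GTPases it was the only one called higher in both pairs under all 3 scalings, with log2 differences of 0.66 ± 0.09 SE (limma adjusted p = 4.20e-05) and 0.46 ± 0.08 (0.000352). Sec14l4, chosen because the study lists it as different between these lean and obese rats, is described with no p. It had 15.6 ± 1.52 TPM in the lean (n = 6), 13.2 ± 1.41 TPM in the obese (n = 6), 23.7 ± 0.84 TPM in the lean control (n = 4) and 27.1 ± 1.55 TPM in the obese + TT rats (n = 4), with every injected rat above every untreated rat.

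Sec61b (ENSRNOG00000006345) fell furthest in the lean pair. It had 198, 235 and 261 TPM in the lean and 213, 239 and 265 TPM in the obese rats (lowest, median, highest). It had 161.98, 160.66, 180.99 and 153.99 TPM in the lean control and 147.51, 174.13, 181.48 and 131.47 TPM in the obese + TT rats, below every untreated rat. The log2 difference was -0.48 ± 0.08 SE in the lean pair (limma adjusted p = 0.000252) and -0.61 ± 0.10 in the obese pair (0.000227). Sec61a1 and Sec61g, its partners in the channel, were called in neither pair in TPM. With median-of-ratios scaling Sec61a1 was called lower in both (-0.33 and -0.36) and Sec61g in the obese pair (-0.43). Within a rat, Sec61b stood at 4.57 ± 0.46 and 4.77 ± 0.75 times Sec61a1 in the lean and obese rats (SD, n = 6 each) and at 3.38 ± 0.46 and 3.31 ± 0.51 times in the lean control and obese + TT rats (n = 4 each), with no overlap in either pair.

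Vamp8 had 189, 214 and 260 TPM in the lean and 204, 231 and 270 TPM in the obese rats. It had 193.9, 192.73, 171.32 and 165.19 TPM in the lean control and 154.28, 109.47, 184.76 and 155.78 TPM in the obese + TT rats. The lean groups overlapped and the obese groups did not (log2 difference -0.30 ± 0.10 SE, limma adjusted p = 0.0180, and -0.66 ± 0.13, 0.000958). Arf5 had 189, 195 and 215 TPM in the lean and 192, 207 and 219 TPM in the obese rats, above every injected rat, and differed by -0.42 ± 0.06 (limma adjusted p = 3.42e-05) and -0.33 ± 0.06 (0.000818).

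The other genes called lower in both pairs under all 3 scalings were Vps28 of ESCRT-I (-0.28 and -0.39 in TPM), Sec22b (-0.29 and -0.18), Sar1b (-0.26 and -0.18), Rab5c (-0.24 and -0.20) and the p24 gene Tmed9 (-0.17 and -0.34). Of the 3 COPII genes, Sar1b was called in both pairs in TPM, and Sec13 and Sec23b were not, but both were called lower with median-of-ratios scaling.

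The other genes called in both pairs in TPM were all higher in the injected rats, and were not called so under every scaling. They were Snx3 (0.54 and 0.36), Tmed10 (0.30 and 0.33), Tmed7 (0.24 and 0.43), Rab6a, a Golgi GTPase (0.28 and 0.34), Rab7a (0.21 and 0.28) and Rab5b, and in the lean pair the sign of Tmed7, Rab6a, Rab7a and Rab5b turned with median-of-ratios scaling. In TPM and in the lean pair alone, Stx6 lay among the genes called higher (0.37), although it was chosen through the lean and the obese rats. Vps25 (-0.36), Vps29 (-0.20), Snx17 (-0.20), Rab2a (-0.19) and Cope were called lower in TPM in that pair alone. With median-of-ratios scaling, each of these lower genes was called lower in the obese pair as well. In the obese pair alone, Vps35 (0.28), Sec62, an ER membrane partner of the channel (0.21), Rab11b of recycling endosomes (0.20) and Copb1 were called higher in TPM. Each had its sign turned by median-of-ratios scaling. Rab5if (-0.38) was called lower in TPM in the obese pair alone. With median-of-ratios scaling, and also without Ttr, Rab5if was called lower in the lean pair too. A call in 1 pair and not in the other is not a difference between the pairs. That difference is the same quantity as the difference between the contrasts tested above, for which none of the 58 genes passed.

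**Figure D5:**
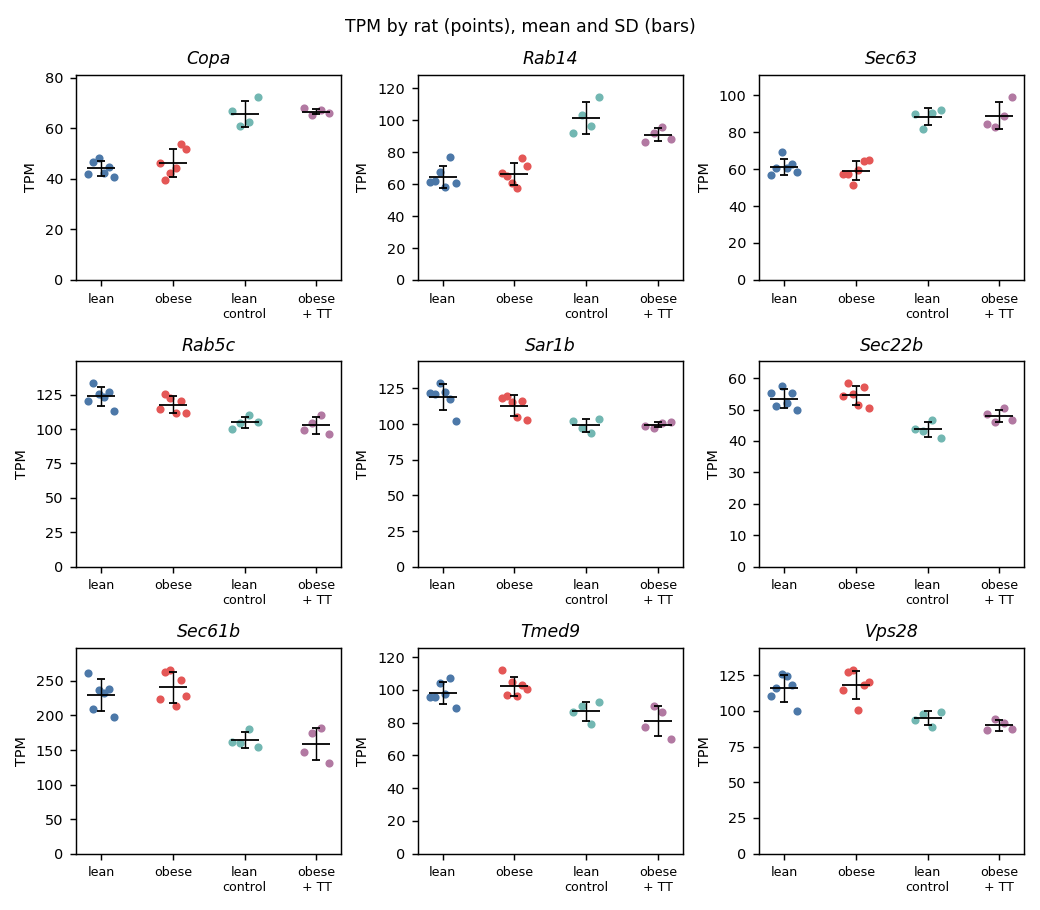
TPM in each rat (points), with the mean and 1 SD (bars), of 9 traffic genes called in both pairs of injected and untreated rats. The means of Copa, Rab14 and Sec63 lie higher, and those of Rab5c, Sar1b, Sec22b, Sec61b, Tmed9 and Vps28 lower, in the lean control and obese + TT rats than in the lean and obese rats.

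Of the 3 Rab5 genes, which share a role on early endosomes, Rab5b stood apart from the other two in the injected rats. Rab5b differed by 0.14 ± 0.05 SE in the lean pair (limma adjusted p = 0.0329) and 0.32 ± 0.05 in the obese pair (0.000373) in TPM, whereas with median-of-ratios scaling it lay at -0.15 in the lean pair, so its direction there depends on the scaling. The ratios within a rat do not: Rab5c stood at 1.52 and 1.64 times Rab5b in the lean and obese rats and at 1.17 ± 0.06 and 1.15 ± 0.05 times in the lean control and obese + TT rats (SD, n = 4 each), without overlap in either pair. Rab5b per Rab5a was 1.77 and 1.58 in the lean and obese and 2.19 and 2.06 in the lean control and obese + TT rats, also without overlap. Rab5c per Rab5a was 2.69 and 2.57 in the lean and obese and 2.56 and 2.36 in the lean control and obese + TT rats, and overlapped in each comparison. Rab1a per Rab1b and Rab11b per Rab11a overlapped in each of the 4 comparisons.

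Among the retromer subunits, Vps35 stood apart. Vps29 stood at 2.11 ± 0.13 and 2.26 ± 0.15 times Vps35 in the lean and obese rats and at 1.71 ± 0.06 and 1.73 ± 0.13 times in the lean control and obese + TT rats, without overlap in either pair. Vps35 per Vps26a was 1.26 and 1.23 in the lean and obese rats and 1.53 and 1.38 in the lean control and obese + TT rats, without overlap in either pair, whereas Vps29 per Vps26a overlapped in each comparison (2.66, 2.78, 2.61 and 2.39). Of the 11 ratios, 6 did not overlap in the lean pair, 5 in the obese pair and 0 between the obese and the lean rats. Several of these ratios share a gene, and none were computed between genes outside the 58, so the counts have no background. Of all single genes, 44.8% did not overlap in the lean pair and 45.8% in the obese pair. How reads shared between similar paralogues were divided in the TPM values is not given in the sources used here, so levels within the Rab1, Rab5 and Rab11 families are uncertain to that extent.

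Other genes of the pathway were read from 6 lists of 72 genes, of which 40 had a symbol. None of the 40 passed the test between the obese and the lean rats, between the obese + TT and the lean control rats, or between these contrasts. At an unadjusted p under 0.05, 1 was found in the first of these (Clta, the clathrin light chain a, with 365 ± 24.1 TPM in the lean and 433 ± 65.0 TPM in the obese rats), 2 in the second and 0 in the third, against 9.66%, 7.43% and 8.36% of all genes. In the injected against the untreated rats, 14 were called higher and 9 lower in the lean pair (57.5% in all, against 58.2% of all genes), and 15 higher and 9 lower in the obese pair (60.0%, against 58.1%), in TPM. With median-of-ratios scaling 5 were called higher and 27 lower in the lean pair (12.5% and 67.5%), against 20.9% and 55.3% of the abundant genes. In the obese pair 4 were called higher and 26 lower (10.0% and 65.0%), against 22.4% and 51.1%. Without Ttr, 10 were called higher and 15 lower in the lean pair (25.0% and 37.5%), against 31.9% and 38.5%. In the obese pair 5 were called higher and 17 lower without Ttr (12.5% and 42.5%), against 29.4% and 40.2%.

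By list and in TPM, 7 of the 14 cargo receptors and tethers between the ER and the Golgi apparatus were called higher in each pair, among them Ergic3 with 0.24 and 0.27, and 0 and 1 were called lower. With median-of-ratios scaling 2 and 1 of the 14 were called higher and 8 in each pair lower. Of the 10 translocon partners and signal recognition genes, 2 were called higher and 4 lower in each pair in TPM, among them Spcs1, a signal peptidase subunit, with -0.32 and -0.42, and 0 were called higher and 8 lower in each pair with median-of-ratios scaling. Of the 6 clathrin and adaptor genes, 3 were called higher in each pair and 3 and 2 lower in TPM. Among them were Ap2m1 with 0.33 in both pairs and Clta with -0.21 and -0.37. Over all genes in TPM, 41.7% were called higher in each pair, and 16.5% and 16.4% lower. Among the abundant genes these were 37.3% and 39.0% higher, and 24.5% and 24.4% lower. With median-of-ratios scaling, 20.9% and 22.4% of the abundant genes were called higher, and 55.3% and 51.1% lower.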

How the data were processed

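RNA of the choroid plexus was sequenced by the authors in 20 rats as paired reads and mapped with STAR 2.7.9a to Rnor_6.0. The study ran DESeq2 on gene counts, which were not analysed here, and the submitters' processing notes also list RSEM 1.3.3 with no role. Per the file headers, the authors deposited TPM and FPKM values for each of 32883 genes in each rat, and no depth can be read from them. Since TPM add up to the same total in every library, a change in an abundant gene such as Ttr shifts the values of all others. FPKM was a constant multiple of TPM within a library and served only for the mean transcript length. Genes averaging 0.1 TPM or more were fitted as log2(TPM + 0.1) in R 4.3.3 with limma 3.58.1 (eBayes with a trend on the mean), on the groups compared, with Benjamini-Hochberg adjustment over all genes tested and a threshold of 0.05. The difference between contrasts was fitted on all 20 libraries. Single genes were also tested by exact permutation (scipy 1.17.1), where 6 against 6, 4 against 4 and 4 against 6 rats can give no p below 0.00216, 0.0286 and 0.00952. The scripts were tested on simulated data.

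The members and lists were chosen with earlier results of these data known. Named were the 2 genes of highest mean per role, the 5 of smallest p per comparison, any called, the genes the study lists as differentially expressed, and the paralogue and complex sets. That genes called in both pairs under all 3 scalings are given in most detail was chosen after their values were seen. Alternatives were another pseudocount, other filters, other eBayes settings, 2 scalings, a fit of all libraries, and each rat left out.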

Additional observations from a re-analysis of the deposited data

Results flagged for a closer look

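In 6 of the 232 sets of values checked (58 genes in 4 groups), 1 rat stood apart from the rest of its group by Dixon's criterion, where chance alone gives about 11.6. Rab1a stood at 180.29 TPM in lean rat 6 (201.47 to 212.94 TPM in the others) and at 210.6 TPM in obese + TT rat 19 (187.44 to 191.01 TPM). Rab5a stood at 49.0 TPM in the same obese + TT rat (41.63 to 42.16 TPM). Vps26a stood at 48.12 TPM in obese rat 11 (39.83 to 42.86 TPM), Snx5 at 39.98 TPM in lean control rat 14 (42.87 to 43.32 TPM) and Copb1 at 72.31 TPM in obese + TT rat 18 (75.73 to 76.3 TPM).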

How the results depend on the processing

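No traffic gene passed the test between the obese and the lean rats, between the obese + TT and the lean control rats, or in the difference of these contrasts, under any alternative run, and among the 55 genes named by abundance the lowest adjusted p was 0.112 (Rab5b), 0.314 (Snx3) and 0.277 (Vps26a). In the injected against the untreated rats the count of 24 called genes in the lean pair became 47 with median-of-ratios scaling and 42 without Ttr, and that of 23 in the obese pair became 41 and 38. Leaving out 1 rat at a time gave 20 to 32 and 19 to 28 calls, and the other alternatives stayed within 1.5 times the counts of 24 and 23. With median-of-ratios scaling the sign turned in the lean pair for Rab5b (-0.15), Rab6a (-0.00911), Rab7a (-0.084), Sec62 (-0.14) and Tmed7 (-0.052), and in the obese pair for Copb1 (-0.085), Rab11b (-0.083), Rab7a (-0.00674), Sec62 (-0.073) and Vps35 (-0.00712). The cause was not tested. No paired analysis was possible because the rats carry numbers that no 2 groups share. Depth is not given, so no counting error could be set beside a TPM value.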
